A study of Mus musculus with 577 samples.

Results

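The 10 genes that mark and regulate granulosa cells, the somatic cells that surround and nourish the oocyte in an ovarian follicle, were followed through every gene count table of a mouse ovary series. They were the transcription factors Foxl2, Nr5a1, Nr5a2, Gata4, Gata6, Wt1 and Esr2, the hormone gene Amh, its receptor Amhr2 and the secreted signal Wnt4, taken as the rows whose symbol matched the list. All 10 of 10 symbols were found once in each of the 8 tables, among 22060 protein-coding genes, and the rule used no measured value. A level is given as log2 (RPM+1), where RPM is the reads of a gene per 1000000 reads on protein-coding genes of that library.

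The study tested lysis chemistry for RNA sequencing of cells cut from tissue sections with a laser (laser capture microdissection, LCM). Unless stated otherwise, the cells came from snap-frozen, alcohol-fixed ovary sections of 8-week-old female mice. Neither an engineered allele nor a strain is named for them. Per the study, SC3-seq, SMART-Seq v4 and Smart-seq2 with and without DRaqL, and the formalin method, were run on sections of one and the same ovary, so a count of methods here is not a count of animals. Single granulosa cells were captured next to the oocyte (neighboring) or away from it (non-neighboring), and single oocytes from primary or from secondary to antral follicles. DRaqL lyses a captured cell directly with a detergent that is then quenched, without RNA purification. The chemistries were DRaqL-SC3-seq, which reads 3′ ends (31 neighboring and 26 non-neighboring granulosa cells, 44 oocytes), the commercial SMART-Seq v4 kit without DRaqL (17 and 17 granulosa cells, 18 oocytes) and with it (20 and 19, and 15 oocytes), and Smart-seq2 after the LCM-seq lysis (17 and 20) or after DRaqL (15 and 19). A formalin set came from sections kept for 24 h in formalin, whose cells were lysed with protease and DRaqL-Smart-seq2 (12 and 12, and 12 oocytes). In one further set a single proestrus mouse gave 35 and 35 granulosa cells and 8 secondary to antral oocytes captured from sections of one ovary with DRaqL-Smart-seq2. Its other ovary gave 14 and 21 granulosa cells and 14 grown oocytes, dissociated by pipetting from cumulus-oocyte complexes with a cyclic AMP analog present and read with Smart-seq2. There, neighboring means attached to the oocyte. DRaqL-SC3-seq also read 7 pools of about 10 neighboring cells, 7 such pools of non-neighboring cells and 7 bulk samples of the whole granulosa of single sectioned follicles, whose follicle stage the labels do not give.

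Each single-cell library was 1 cell and no label names the mouse of a cell, so a group of cells counts as 1 sample here. Differences between groups of single cells are therefore given as differences of mean log2 (RPM+1) with the SD over cells and without a p-value, and are called past 2-fold where they reach 1 on the log2 scale. The share of all genes with reads that pass the same limit is printed beside each count. Library totals ran from 12748 to 17506401 reads on protein-coding genes, lowest in the dissociated granulosa cells and highest in serially sectioned oocytes. The 10 granulosa marker genes summed to medians between 4148 and 18362 RPM in the granulosa cells by method. The 14 oocyte markers had a median sum of 2943 RPM in neighboring and 64.2 RPM in non-neighboring DRaqL-SC3-seq cells. An oocyte marker sum above 10% of the median oocyte was present in 16 of 57 of those cells, 13 of them neighboring, and in between 2 and 7 cells of each other method. A further 3 DRaqL-SC3-seq granulosa cells, which the study set apart for their mixed profile, were left out.

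As background, FOXL2 is the forkhead factor that keeps granulosa cells from turning toward the testicular supporting cell, and WNT4 works through beta-catenin on the same side of that choice. NR5A1 (SF-1) and NR5A2 (LRH-1) bind the same DNA letters as monomers and drive steroid and ovulation genes, GATA4 and GATA6 act beside them, WT1 marks the supporting cells of early follicles, and ESR2 (estrogen receptor beta) is the main estrogen receptor of granulosa cells. AMH, a hormone of the TGF-beta family, is secreted by granulosa cells of growing follicles, is known to be highest around the oocyte in small antral follicles, and signals through AMHR2 to SMAD proteins.

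Promoter sequence is shown for the members whose start in the RefSeq table was also the start of the gene in the annotation, because their regulators are members too. The letters searched, on both strands, were AAGGTCA for NR5A factors, AGATAA and TGATAA for GATA factors, GTAAACA for forkhead factors and CTTTGAT for the TCF factors of the WNT pathway, and a match is given as a description of the letters only. Of the members, 5 had an entry in the table, which holds 250 bases before and 50 after a start in build GRCm38.p6. The 250 bases before the start follow for Amhr2 (chr15:102445117-102445366, plus strand), Nr5a2 (chr1:136960449-136960698, minus strand) and Esr2 (chr12:76177260-76177509, minus strand), 5′ to 3′ on the strand of the gene, with the NR5A and GATA letters in capitals.
Amhr2: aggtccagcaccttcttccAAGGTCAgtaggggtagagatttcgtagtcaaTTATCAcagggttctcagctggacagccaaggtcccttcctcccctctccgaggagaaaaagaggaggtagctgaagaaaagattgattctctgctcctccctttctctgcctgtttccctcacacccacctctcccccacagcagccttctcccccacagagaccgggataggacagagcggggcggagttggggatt
Nr5a2: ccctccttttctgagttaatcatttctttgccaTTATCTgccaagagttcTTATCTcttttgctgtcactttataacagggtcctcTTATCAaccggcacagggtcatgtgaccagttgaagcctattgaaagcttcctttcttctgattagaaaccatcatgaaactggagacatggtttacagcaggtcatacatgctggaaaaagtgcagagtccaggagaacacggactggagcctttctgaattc
Esr2: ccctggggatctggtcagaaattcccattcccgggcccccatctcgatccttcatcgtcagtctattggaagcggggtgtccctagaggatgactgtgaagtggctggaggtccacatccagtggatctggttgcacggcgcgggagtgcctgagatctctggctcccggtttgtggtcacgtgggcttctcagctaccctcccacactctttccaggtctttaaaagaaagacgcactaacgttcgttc

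The Amhr2 window held AAGGTCA at base -231 from the start and TGATAA, on the opposite strand, at base -199. AAGGTCA was present in 4.72% and TGATAA in 9.05% of the 32851 promoters of the table. The Nr5a2 window held AGATAA at bases -217 and -200 and TGATAA at base -164, all on the opposite strand, against 11.2% of promoters with AGATAA, and a second Nr5a2 entry held TGATAA at base -5. No letters of the search were found for Esr2, Foxl2 or Wnt4 in their windows. The windows of Foxl2 and Wnt4 were rich in CG pairs, with 27 and 51 of them against a median of 7 over the table, while the Nr5a2 window had 2. GTAAACA and CTTTGAT, present in 3.65% and 3.73% of promoters, were in none of the members' windows.

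Every member except Amh and Wnt4 was read in most of the granulosa cells in most methods, and a pair of them, Nr5a2 and Esr2, was read in every laser-captured granulosa cell. In DRaqL-SC3-seq the mean level of Nr5a2 over 57 granulosa cells was 8.58 ± 1.89 (SD), with the lowest cell at 2.22, the median at 8.99 and the highest at 11.81. Esr2 had a mean of 8.29 ± 1.34 (lowest 5.32, median 8.78, highest 10.63). Nr5a1, the paralog of Nr5a2, was uneven between cells, with 44 of 57 cells carrying a read and a mean of 4.73 ± 3.49 (median 5.25, highest 10.93). As Nr5a2 was read in every laser-captured granulosa cell, a cell with Nr5a1 reads alone could occur only in the dissociated set. There 23 of 35 cells had reads of both genes, 9 of Nr5a2 alone, 0 of Nr5a1 alone and 3 of neither.

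**Figure D1:**
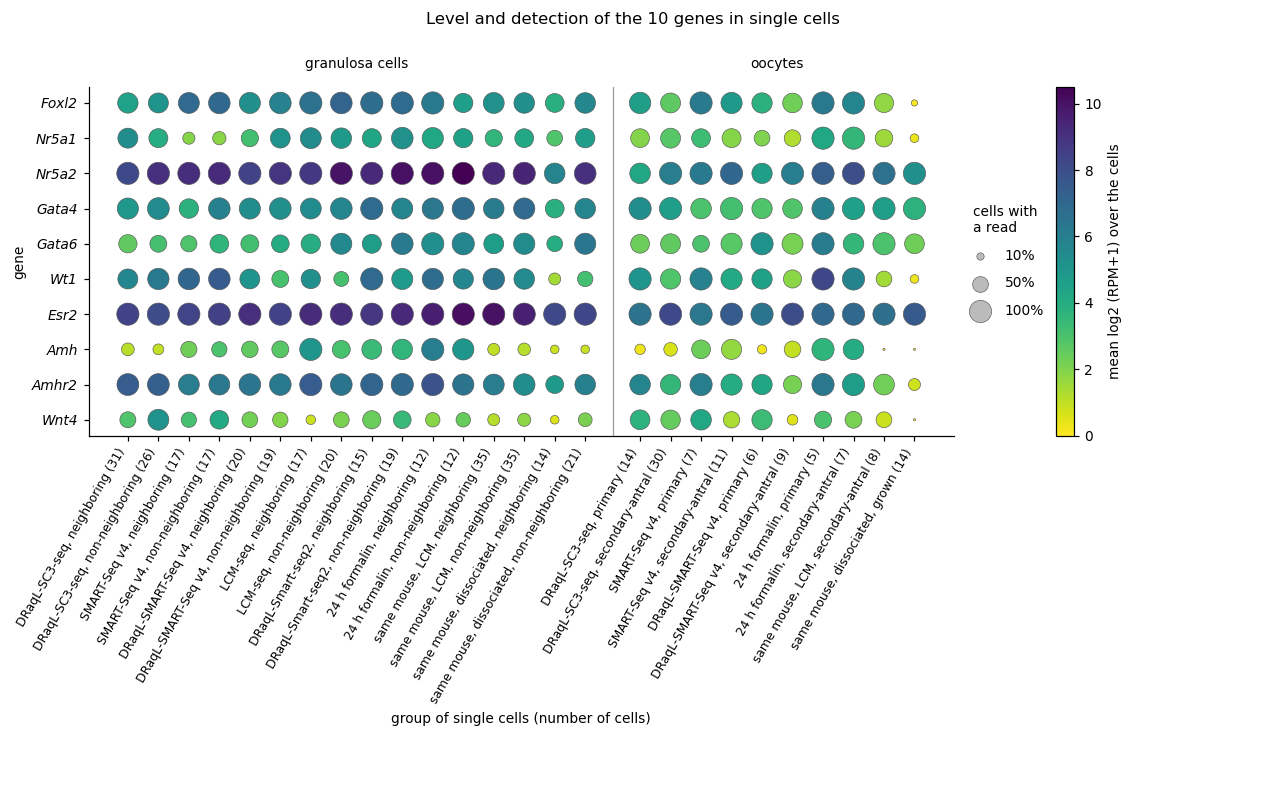
Mean log2 (RPM+1) (color) and share of cells with at least 1 read (dot size) of the 10 genes (rows) in 16 groups of single granulosa cells and 10 groups of single oocytes (columns, number of cells in parentheses). Nr5a2 and Esr2 are at full dot size in all laser-captured granulosa groups, while Amh and Wnt4 have small pale dots in many of them, and Amh has only the specks that stand for no read in both oocyte groups of the same mouse.

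Foxl2 was read in 47 of 57 DRaqL-SC3-seq granulosa cells, at a mean of 4.72 ± 2.99 (median 5.15, highest 9.23), and in 34 of 34 cells of DRaqL-Smart-seq2, at 6.84 ± 1.10 (lowest 3.35, median 7.37, highest 8.20). Wt1 was read in 49 of the 57 DRaqL-SC3-seq cells, with a mean of 5.94 ± 3.30 over all 57. Gata4 was read in 53 of these cells at 5.17 ± 3.00, and Gata6 in 36 at 2.81 ± 3.01. Both GATA genes were read together in 33 cells, Gata4 alone in 20 and Gata6 alone in 3. The receptor gene Amhr2 was read in 55 of 57 cells at 7.43 ± 2.70 (median 8.18, highest 11.65), whereas its ligand gene Amh was read in 16 of 57 (28.1%, exact binomial interval 17% to 41.5%) at 1.07 ± 1.98. Of these 16 cells, 15 also had Amhr2 reads, and 40 further cells had Amhr2 reads alone. Wnt4 was read in 39 of 57 cells at 3.92 ± 3.42. Intervals on shares and sums given here are 95% exact intervals, an upper share beside a count of 0 takes 3 cells of the total, and both cover counting error only.

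Granulosa cells were compared with oocytes within each of the 6 methods that held both. Reads of granulosa markers were present in every oocyte group. The granulosa marker sum was 103.1 to 1531 RPM (median 448) in the DRaqL-SC3-seq oocytes and 441 to 652 RPM (median 551) in the dissociated ones. In 43 of the 60 member and method pairs the granulosa mean was past 2-fold higher, and in 0 of 60 past 2-fold lower. By method this was 6 of 10 members in DRaqL-SC3-seq (3.21% of all genes higher past 2-fold), 7 in SMART-Seq v4 (2.82%), 8 in DRaqL-SMART-Seq v4 (7.54%), 5 in the formalin set (6.07%), 9 in the laser-captured cells of the same mouse (7.69%) and 8 in its dissociated cells (12.2%). Beside the 0 members past 2-fold lower, 34.5% (DRaqL-SMART-Seq v4) to 50.9% (SMART-Seq v4) of all genes were lower past 2-fold by method. The median member difference was above the median over all genes in each method, for example 1.27 against -0.67 in DRaqL-SC3-seq and 2.58 against -0.47 in the laser-captured cells of the same mouse. An RPM is a share of the reads of a cell, and oocytes hold far more RNA. Per read of the ERCC spike-in RNA, whose counts were used here for 3 of these methods, 0 of 30 pairs were past 2-fold higher in granulosa cells, against 20 of 30 by RPM.

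Nr5a2 and Amhr2 were past 2-fold higher in granulosa cells in all 6 methods, by 2.44 to 3.19 and by 1.37 to 4.73 on the log2 scale. In DRaqL-SC3-seq the oocyte means of both were 5.52 ± 1.92 and 4.23 ± 2.76 (n = 44), and the values of single cells overlapped between the cell types. Foxl2, Gata4 and Wt1 were past 2-fold higher in 5 of 6 methods each. Foxl2 ranged from -0.50 in the formalin set to 4.79 in the dissociated cells, and Wt1 from -0.60 in the formalin set to 4.55 in the laser-captured cells of the same mouse. In the formalin set the oocytes had Foxl2 at 5.96 ± 1.36 and Wt1 at 6.83 ± 1.69, with reads of both in 12 of 12 oocytes, beside a granulosa marker sum of 566 to 1234 RPM in them. Whether granulosa RNA in these oocytes accounts for those levels was not tested. Nr5a1 was past 2-fold higher in 4 methods and Esr2 in 4, Amh and Wnt4 in 3 each, and Gata6 in 2.

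**Figure D2:**
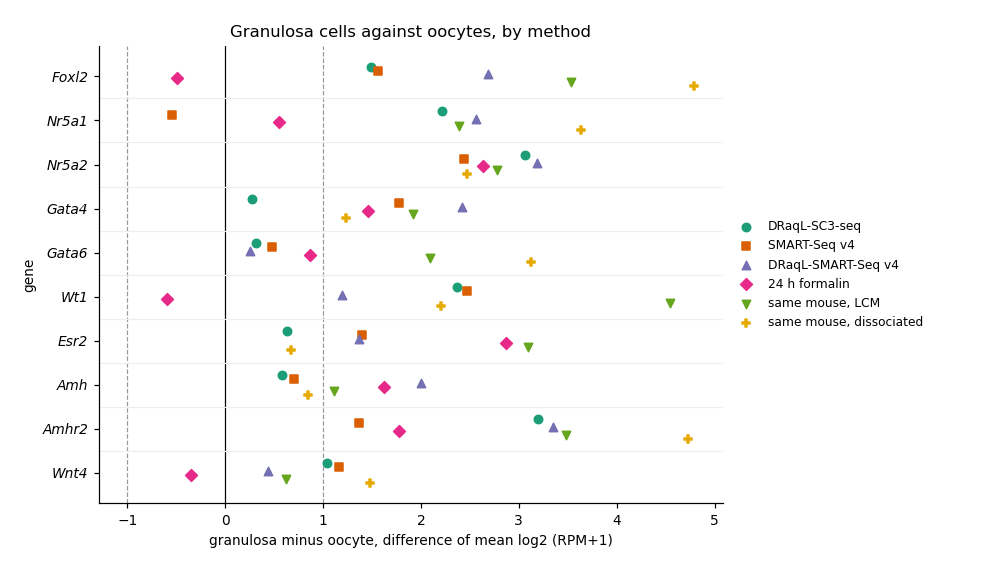
Difference of mean log2 (RPM+1) between single granulosa cells and single oocytes (horizontal axis) for the 10 genes (rows) in 6 methods (symbols), with dashed lines at 2-fold in each direction. All symbols of Nr5a2 and Amhr2 lie to the right of the 2-fold line, and no symbol lies to the left of the line at -1.

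The grown oocytes of the dissociated ovary split the members into those read in every oocyte and those nearly absent. Amh and Wnt4 were read in 0 of 14 of them, which allows a share of up to 21.4% of oocytes, Foxl2 in 1, Nr5a1 and Wt1 in 2 each and Amhr2 in 4. Esr2 was read in 14 of 14 at 7.58 ± 0.22, Nr5a2 in 14 of 14 at 5.26 ± 0.43 and Gata4 in 14 of 14 at 3.74 ± 0.80, values with far less spread than in granulosa cells, where the SDs were 1.47, 3.05 and 2.90. Esr2 in particular was 0.67 lower in these oocytes than in the dissociated granulosa cells (8.25 ± 1.47, n = 35), a difference smaller than the granulosa SD.

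Reads of Esr2, Nr5a2 and Gata4 in oocytes are counted within 10 kb of the 3′ end of the gene, a window that other genes share. In libraries with Y-shaped adapters, where reads fall on exons, 5 secondary to antral oocytes had 138 to 687 reads on Esr2 exons, 90.9% of them on the last exon. They had 126 to 250 reads on Nr5a2 exons (93% on the last) and 61 to 214 on Gata4 exons (100% on the last), but 0 to 3 on Foxl2 and 0 on Amh. In mouse embryonic stem cells (mESCs), which are neither cell type, the 3′ counts gave Esr2 in 81 of 81 cells, at 6.36 ± 0.47 in 45 fresh and 6.31 ± 0.56 in 36 laser-captured cells, whereas 0 reads fell on Esr2 exons in 10 of 10 mESC libraries with Y-shaped adapters. Nr5a2 was read in 81 of 81 mESCs too, at 5.87 ± 1.23 and 6.18 ± 1.47, with 117 to 1050 reads on its exons in 5 fresh libraries. Foxl2 and Amh were read in 0 of 81 mESCs, which allows up to 3.7% of cells. The gene next to the 3′ end of Esr2 is Syne2, on the opposite strand, 9492 bases away with 508 exon bases inside the window, and its mean was 3.91 and 2.51 in fresh and laser-captured mESCs. In DRaqL-SC3-seq Syne2 was read in 57 of 57 granulosa cells at 8.17 and in 44 of 44 oocytes at 7.58, levels of counts within 10 kb of 3′ ends that are close to those of Esr2. Next to Gata4 lies Neil2 on the same strand (5065 bases away, 3119 exon bases in the window), a repair gene with a mean of 4.72 and reads in 44 of 44 DRaqL-SC3-seq oocytes against 0.46 in granulosa cells. The part of these neighbors in the counts of Esr2 and Gata4 was not tested. The counting strand is not given in the sources used here, so reads on bases that a member shares with an antisense gene cannot be told apart.

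Antisense genes were counted in some tables for Foxl2, Nr5a1 and Wt1. In the annotation Foxl2os (chr9:98949781-98955299) and Nr5a1os (chr2:38712676-38720638) overlap their genes, with 0 exon bases in the 10 kb windows. No annotated gene overlaps Wt1 or lies in its window. Summed over the 7 bulk samples, Foxl2os had 4774 reads beside 3357 of Foxl2 and Wt1os had 2401 beside 2729 of Wt1, whereas Nr5a1os had 17 beside 3222 of Nr5a1. In build GRCm38 Foxl2 lies at chr9:98955288-98958543, Wt1 at chr2:105126529-105173616 and Nr5a1 at chr2:38692656-38714542. The other members lie at chr1:136842571-136960448 (Nr5a2), chr14:63198922-63271692 (Gata4), chr12:76120419-76177259 (Esr2), chr10:80805243-80807648 (Amh), chr15:102445367-102454633 (Amhr2) and chr4:137277489-137299726 (Wnt4).

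Between neighboring and non-neighboring single granulosa cells, the comparison the study designed around the contact with the oocyte, the members had no common direction. Of 80 member and method pairs, 28 were past 2-fold, and the values of the groups overlapped in all 80. By method the members past 2-fold were 2 in DRaqL-SC3-seq (10.4% of all genes in either direction), 2 in SMART-Seq v4 (19%), 2 in DRaqL-SMART-Seq v4 (17.7%), 6 in LCM-seq (17.7%), 4 in DRaqL-Smart-seq2 (14.2%), 4 in the formalin set (23.5%), 0 in the laser-captured cells of the same mouse (11.3%) and 8 in its dissociated cells (36.6%). The dissociated neighboring cells were shallow, with a median of 87883.5 reads against 132194 in the non-neighboring ones, and carried up to 66185.5 RPM of 4 blood genes. Of their 7 library pools, 3 held both positions. Within those pools the Gata6 difference was 7.45, -2.13 and -9.85, 3 values of unequal sign on 1 to 5 cells a side.

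**Figure D3:**
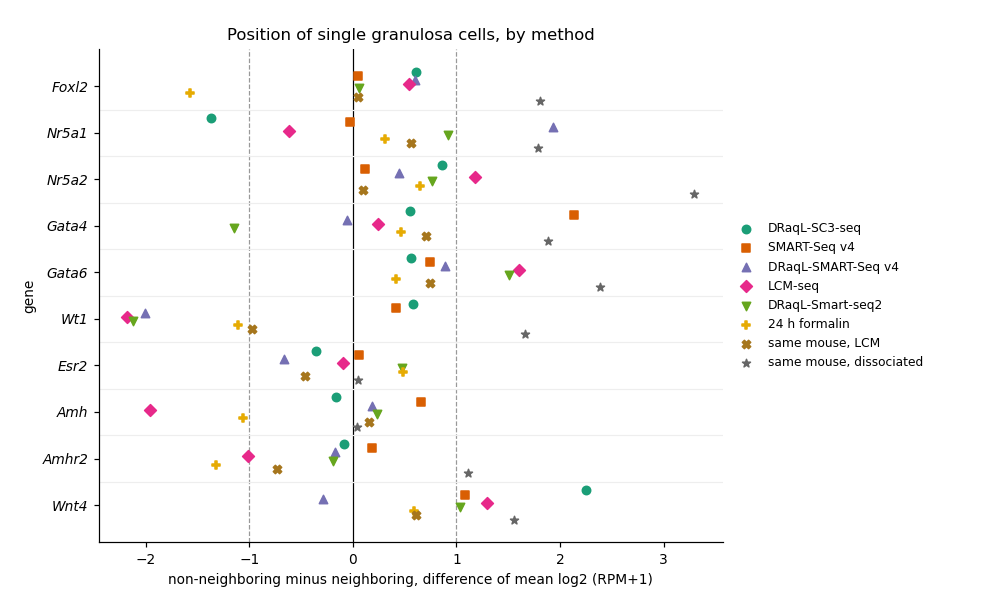
Difference of mean log2 (RPM+1) between non-neighboring and neighboring single granulosa cells (horizontal axis) for the 10 genes (rows) in 8 methods (symbols), with dashed lines at 2-fold in each direction. Nr5a2 and Gata6 lie to the right of 0 in all 8 methods and Wnt4 in 7, Wt1 lies to the left in 5, and the dissociated cells of the same mouse stand farthest to the right for Nr5a2, Gata6 and Wt1.

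Wnt4, the signal of the WNT pathway, was higher in non-neighboring cells in 7 of 8 methods, past 2-fold in 5. In DRaqL-SC3-seq it was read in 16 of 31 neighboring cells at 2.89 ± 3.47 (median 0.97, highest 8.90) and in 23 of 26 non-neighboring cells at 5.14 ± 2.98 (median 5.48, highest 10.06). The summed level was 67 RPM (63.4 to 70.8) against 164 RPM (158 to 171). The study's own list of position genes, made from these same cells, holds Wnt4, so this value is a description and no independent evidence of its direction. Within 2 ranges of cell numbers in the labels the difference was 1.74 (20 against 22 cells) and 3.63 (6 against 9 cells). In LCM-seq Wnt4 was read in 3 of 17 neighboring and 10 of 20 non-neighboring cells, at 0.82 ± 2.05 and 2.12 ± 2.44, and the difference was 1.18 to 1.43 in all 4 library pools. In DRaqL-Smart-seq2 the means were 2.38 ± 2.30 and 3.42 ± 3.20, but the pools ranged from -2.18 to 2.69. DRaqL-SMART-Seq v4 gave -0.28. In SMART-Seq v4 the difference of 1.08 fell to -0.36 once cells with oocyte RNA were left out. In each of the 7 laser-captured methods the difference was smaller than the SD over cells of either position.

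Wt1 was lower in non-neighboring cells in 5 of 8 methods, past 2-fold in 4. In DRaqL-Smart-seq2 it was read in 15 of 15 neighboring cells at 6.92 ± 1.51 (lowest 1.94, median 7.31, highest 8.35) and in 17 of 19 non-neighboring cells at 4.80 ± 2.80 (lowest 0, median 6.01, highest 8.42). The difference was -2.12, and within the 4 library pools it was -2.59, -3.06, -1.83 and -1.87. It was larger than the SD of the neighboring cells but not than that of the non-neighboring ones. LCM-seq gave -2.18, smaller than either SD, with reads in 13 of 17 against 9 of 20 cells and pool values from -4.07 to -0.64. DRaqL-SMART-Seq v4 gave -2.0, with pool values from -4.08 to -1.15, and the formalin set gave -1.11. All 14 library pools of these 4 methods had Wt1 lower in the non-neighboring cells. The methods were grouped here by that direction, so the agreement of their pools is partly built in. Laser-captured cells of the same mouse gave -0.97, and -0.67 within library pools. DRaqL-SC3-seq (0.59) and SMART-Seq v4 (0.41) had it slightly higher, differences far below their SDs over cells. The library pools of SMART-Seq v4 gave -0.23, -0.66, -1.40 and 2.73, and the ranges of cell numbers in DRaqL-SC3-seq 0.20 and 1.95. The dissociated cells of the same mouse had it past 2-fold higher, by 1.66, a difference of 0.000501 once cells were thinned to 100000 reads. The 7 theca and interstitial markers, genes of the cells outside the follicle wall, had medians of 1.58 and 29.4 RPM in neighboring and non-neighboring cells of DRaqL-Smart-seq2, of 3.35 and 222 RPM in DRaqL-SMART-Seq v4 and of 0 and 0 in LCM-seq. Their part in the Wt1 values was not tested.

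**Figure D4:**
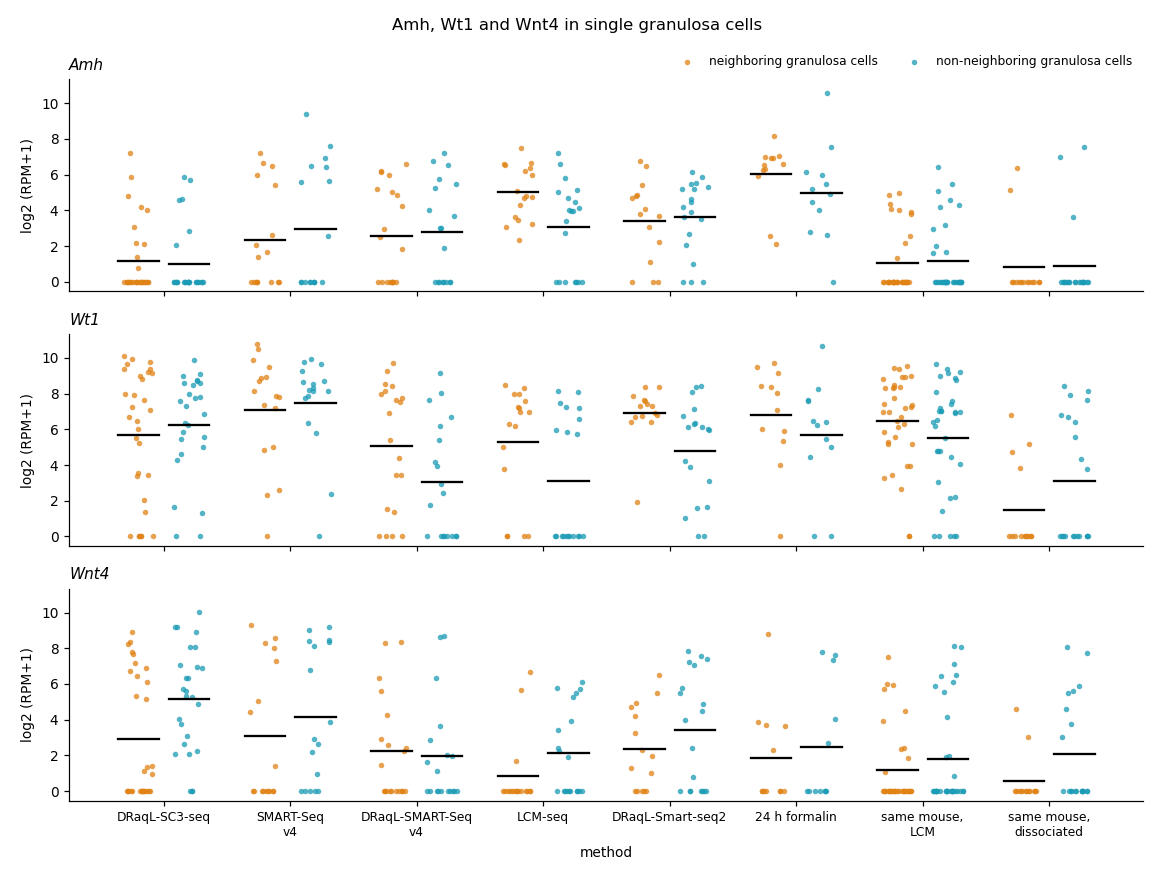
Log2 (RPM+1) of Amh, Wt1 and Wnt4 (panels) in each single granulosa cell (points) of 8 methods, neighboring cells in orange and non-neighboring cells in cyan, with a bar at the mean. Amh sits at 0 in most cells of DRaqL-SC3-seq and of the same-mouse sets and near 6 in the formalin set, and the Wt1 bar is lower in non-neighboring cells of the DRaqL-SMART-Seq v4, LCM-seq, DRaqL-Smart-seq2 and formalin sets.

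Nr5a2, which drives ovulation and steroid genes, was higher in non-neighboring cells in 8 of 8 methods, by 0.10 to 3.30, past 2-fold in LCM-seq (9.98 ± 1.29 against 8.80 ± 1.19) and in the dissociated cells. The dissociated value of 3.30 became 0.09 within library pools. In laser-captured cells of the same mouse 0.10 became -0.21 when thinned. In DRaqL-SC3-seq 0.86 became 0.34 without cells holding oocyte RNA. Over the library pools of the laser-captured methods the signs were mixed, for example 1.37, 0.07, 0.36 and -1.26 in SMART-Seq v4, while all 4 pools of LCM-seq (0.15 to 2.16) and of DRaqL-Smart-seq2 (0.10 to 1.33) were above 0. Gata6 was also higher in 8 of 8, by 0.42 to 2.38, past 2-fold in LCM-seq (5.57 ± 2.40 against 3.97 ± 2.72), DRaqL-Smart-seq2 (6.20 ± 1.85 against 4.70 ± 3.02) and the dissociated cells. Single library pools gave Gata6 at -1.04 in LCM-seq, -1.10 in SMART-Seq v4 and -1.52 in DRaqL-SMART-Seq v4, while the other pools of these methods were above 0. In the larger range of DRaqL-SC3-seq cell numbers it was -0.09. The formalin value of 0.42 became -0.25 when thinned, and the dissociated value of 2.38 became -1.51 within library pools. Gata4, the paralog of Gata6, changed sign between methods, from -1.15 in DRaqL-Smart-seq2 to 2.14 in SMART-Seq v4. Nr5a1 did so too, from -1.37 in DRaqL-SC3-seq, where both ranges of cell numbers were below 0 (-1.29 and -1.86), to 1.93 in DRaqL-SMART-Seq v4. Esr2 was past 2-fold in 0 of 8 methods, between -0.66 and 0.49. Foxl2 was higher in non-neighboring cells in 7 of 8 methods, with a median difference of 0.30 over methods. It was past 2-fold higher in the dissociated cells, at 1.80, which became -0.30 within their library pools. It was past 2-fold lower in the formalin set, at -1.57, where 1 library pool gave -3.71 and the other 0.56.

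The hormone and its receptor were both lower in non-neighboring cells in LCM-seq and in the formalin set. In LCM-seq Amh was read in 17 of 17 neighboring cells at 5.01 ± 1.52 (lowest 2.35, median 4.80, highest 7.48) and in 13 of 20 non-neighboring cells at 3.05 ± 2.51 (lowest 0, median 3.95, highest 7.21). All 4 library pools had it lower in non-neighboring cells, with differences of -0.43 to -3.53 on the log2 scale. Amhr2 was lower there as well, at 6.44 ± 1.84 against 7.46 ± 0.59. Without the 7 neighboring cells over the limit of oocyte markers the LCM-seq differences were -2.65 for Amh and -1.10 for Amhr2. In the formalin set Amh was -1.06 and Amhr2 -1.32, but the pools gave Amh -2.66 and 0.55, and the log2 ratio of mean RPM turned to 0.73, with 80.4% of the non-neighboring Amh reads in 1 cell. In the other 6 methods Amh differed by -0.16 to 0.66. Amhr2 was lower in non-neighboring cells in 6 of 8 methods.

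The pools of about 10 cells give the position comparison with replicates. With edgeR's quasi-likelihood test over 9704 genes, 44 genes (0.453%) had a Benjamini-Hochberg adjusted p under 0.05, all lower in non-neighboring pools, and 0 of the 9 members tested were among them. Amh had too few counts to be tested. DESeq2 called 1.20% of the genes and 0 members. At an unadjusted p under 0.05 edgeR had 402 genes and 0 members. The adjusted p was 0.998 for all 9 members. Whether pools came from separate mice is not labelled, so these p-values measure the spread between the pools only. In a pool, fewer cells with a transcript and less RNA per cell cannot be told apart.

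Nr5a2 was 9.08, 9.32, 8.32, 8.24, 9.44, 8.12 and 8.51 in neighboring pools 1 to 7 and 8.18, 8.52, 9.25, 9.51, 8.99, 9.82 and 8.85 in the non-neighboring ones. The ranges overlapped almost whole, with a fitted log2 difference of 0.43 (SE 0.32, unadjusted edgeR p = 0.194). Esr2 was 8.63, 8.86, 6.34, 8.85, 9.10, 7.65 and 8.52 against 8.92, 8.41, 9.48, 9.33, 9.34, 6.82 and 9.14, with a difference of 0.62 (SE 0.40, edgeR p = 0.135), the lowest p of the members. Gata6 was 6.74, 5.77, 0.19, 0, 0, 2.82 and 3.21 in neighboring pools against 7.74, 5.05, 5.06, 4.58, 4.12, 4.56 and 4.56. Thus 5 neighboring pools lay below every non-neighboring pool, yet the difference of 1.38 had an SE of 1.34 (edgeR p = 0.316). Wnt4 was 5.38, 6.45, 0.19, 0.23, 5.89, 7.30 and 6.68 in neighboring pools against 1.66, 9.13, 2.30, 4.26, 2.34, 6.33 and 2.15. Of the neighboring pools 5 were above 5, against 2 non-neighboring pools, and the fitted difference was 0.84 with an SE of 1.30 (edgeR p = 0.524). It turned to -1.55 (SE 1.31) without non-neighboring pool 2, the highest of the 14, and to -0.41 (SE 2.02) with the replicate number as a block.

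Wt1 was 6.22, 8.03, 7.23, 5.61, 4.52, 0 and 7.14 in neighboring pools against 7.03, 6.36, 2.92, 6.36, 5.11, 0 and 4.23, a difference of -0.91 (SE 1.13, edgeR p = 0.430). Pool 6 had no Wt1 read in either position. Amh stayed low in all 14 pools, at 1.67, 2.46, 1.74, 0, 0, 0 and 3.85 against 1.96, 0.49, 0, 0.57, 0, 0 and 1.17. The remaining members differed by -0.55 (Nr5a1, SE 0.71; 0.10 without neighboring pool 6), -0.28 (Amhr2, SE 0.36), -0.01 (Foxl2, SE 0.89, of either sign with single pools left out) and 0.41 (Gata4, SE 0.65). The pools also differed in oocyte RNA, with an oocyte marker sum of 856 to 8865 RPM in neighboring and 2.34 to 151 RPM in non-neighboring pools, and in theca markers, with 0 to 734 and 1.21 to 1335 RPM. The part of either in these values was not tested.

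**Figure D5:**
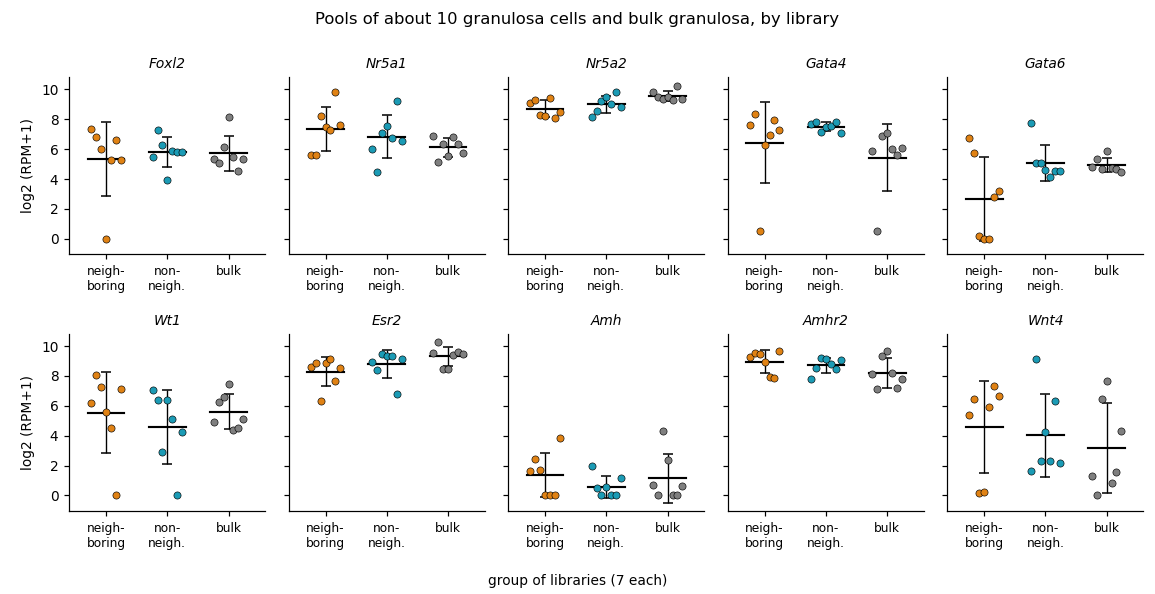
Log2 (RPM+1) of each of the 10 genes (panels) in 7 neighboring pools, 7 non-neighboring pools and 7 bulk granulosa samples (points), with the mean and SD over libraries (bars). The groups overlap in every panel, single pools of Foxl2, Gata4, Gata6, Wt1 and Wnt4 sit near 0, and Nr5a2 and Amhr2 are tight in all 3 groups.

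Bulk granulosa of whole follicles was compared with the 14 pools in one edgeR fit, in which 12 of 11917 genes (0.101%) were called and 0 of 10 members, 3 of which had an unadjusted p under 0.05. With DESeq2 0.755% of the genes and 0 members were called. Nr5a2 was 9.84, 9.50, 9.36, 9.52, 9.29, 10.21 and 9.38 in bulk, 0.71 above the pools (SE 0.24, unadjusted edgeR p = 0.00654, adjusted p = 0.401). Esr2 was 9.52, 10.28, 8.48, 8.46, 9.39, 9.63 and 9.46, 0.79 above (SE 0.32, adjusted edgeR p = 0.587), and Nr5a1 differed by -1.54 (SE 0.60, adjusted edgeR p = 0.552). Amh was 0.71, 0, 4.32, 2.36, 0, 0 and 0.61 in bulk and Wnt4 1.29, 0, 6.44, 7.69, 0.84, 1.59 and 4.35. Bulk samples 3 and 4 were the highest in both genes, and also in Foxl2 (6.16 and 8.14) and Amhr2 (9.33 and 9.64). They also had the highest oocyte marker sums, 945 and 1713 RPM against 4.97 to 463 RPM in the other 5, and sample 3 the highest theca marker sum (176 RPM). The part of either in these values was not tested. The lowest adjusted p of any member over all settings tried was 0.0537, for Nr5a1 in this comparison with DESeq2.

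The chemistry of lysis and amplification was compared within tables. DRaqL-SMART-Seq v4 was set against SMART-Seq v4, both on captured granulosa cells of both positions (39 against 34). Of the members, 4 of 10 were past 2-fold, 1 higher and 3 lower with DRaqL. Of all genes 25.7% were past 2-fold in either direction, 24.7% higher and 1.08% lower. Nr5a1 was read in 27 of 39 cells with DRaqL at 4.14 ± 3.11 and in 11 of 34 without it at 1.90 ± 3.31. Wt1 differed by -3.19, from 7.28 ± 2.84 without DRaqL to 4.10 ± 3.51 with it, and Wnt4 (-1.54) and Foxl2 (-1.36) were also lower. DRaqL-Smart-seq2 against LCM-seq (34 against 37 cells) had 2 of 10 past 2-fold (10.5% of all genes, 9% higher and 1.5% lower). These were Wt1 at 5.73 ± 2.53 against 4.11 ± 3.56 and Wnt4 at 2.96 ± 2.84 against 1.52 ± 2.33, both higher with DRaqL. Wt1 and Wnt4 thus had opposite signs in the DRaqL comparisons of the kits. Per the study, both DRaqL protocols also added reverse transcriptases, and DRaqL-Smart-seq2 used another PCR polymerase than LCM-seq. Lysis and enzymes cannot be told apart here.

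Formalin-fixed granulosa cells were set beside alcohol-fixed ones of DRaqL-Smart-seq2 (24 against 34 cells), from 2 tables scaled alike. Fixation and protease treatment cannot be told apart here. Of the members, 2 of 10 were past 2-fold (22.1% of all genes in either direction). Amh was read in 23 of 24 formalin cells at 5.50 ± 2.29 (lowest 0, median 6.07, highest 10.56) and in 28 of 34 alcohol cells at 3.52 ± 2.14 (median 3.99, highest 6.77). At 100000 reads a cell this was 16 of 18 against 19 of 34 cells, and the summed level was 119 RPM (109.5 to 128) against 24.3 RPM (22.6 to 26.2). Formalin oocytes had Amh reads in 11 of 12, at 3.88 ± 1.98. Foxl2 was lower, at 5.46 ± 2.52 against 6.84 ± 1.10, and the other 8 members differed by -0.80 (Wnt4) to 0.75 (Esr2).

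Across the 8 methods, which stand in different tables, the mean of Amh in granulosa cells ran from 0.85 ± 2.17 in dissociated cells through 1.07 ± 1.98 in DRaqL-SC3-seq, 1.11 ± 1.86 in laser-captured cells of the same mouse, 2.65 ± 3.15 in SMART-Seq v4, 2.67 ± 2.68 in DRaqL-SMART-Seq v4, 3.52 ± 2.14 in DRaqL-Smart-seq2 and 3.95 ± 2.31 in LCM-seq to 5.50 ± 2.29 in the formalin set. Methods next to each other in this order differed by at most 1.55, less than the SD of either. The same held for 7 of 7 steps in every other member except Foxl2, where it held for 6 of 7. As the methods were ordered by their means, such steps are small by construction. They do not measure how far the methods agree, and an SD over cells is not the uncertainty of a mean. Nr5a2 ran from 7.73 to 10.38, Esr2 from 8.25 to 9.85, Amhr2 from 5.53 to 7.43, Foxl2 from 4.72 to 6.93, Gata4 from 4.87 to 6.57, Gata6 from 2.81 to 5.54, Nr5a1 from 1.90 to 5.10, Wt1 from 2.46 to 7.28 and Wnt4 from 1.48 to 3.92. The dissociated cells were lowest for Nr5a2, Wt1, Esr2, Amh, Amhr2 and Wnt4.

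Within the one mouse, dissociated granulosa cells were compared with laser-captured ones (35 against 70). Ovary, isolation and lysis cannot be told apart. Here 4 of 10 members were past 2-fold, all lower in dissociated cells (28.1% of all genes in either direction, 12.6% lower). Wt1 was read in 14 of 35 dissociated cells at 2.46 ± 3.22 (median 0, highest 8.45) and in 63 of 70 captured cells at 5.99 ± 2.83 (median 6.92, highest 9.67), and at 100000 reads in 9 of 20 against 50 of 60. Nr5a2 was 7.73 ± 3.05 against 9.40 ± 1.81, Gata4 4.97 ± 2.90 against 6.54 ± 3.05 and Esr2 8.25 ± 1.47 against 9.79 ± 1.44. Foxl2 (-0.36), Nr5a1 (0.02), Amhr2 (-0.21) and Wnt4 (-0.01) differed by far less than their spread. Of 12 genes that these factors are known to drive, 7 were past 2-fold higher and 1 lower in the dissociated cells, against 15.4% and 12.6% of all genes.

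In oocytes the members differed between primary and secondary to antral follicles in 23 of 40 member and method pairs past 2-fold, with shares of all genes of 31% in DRaqL-SC3-seq (6 of 10 members), 36.7% in SMART-Seq v4 (6), 42.9% in DRaqL-SMART-Seq v4 (7) and 39.9% in the formalin set (4). Esr2 was higher in secondary to antral oocytes in 3 methods. In SMART-Seq v4 it was 7.48 ± 0.33 (7.0 to 8.02, n = 11) against 6.32 ± 0.40 (5.92 to 6.85, n = 7), and in DRaqL-SMART-Seq v4 8.05 ± 0.35 (7.62 to 8.60, n = 9) against 6.45 ± 0.44 (5.81 to 7.02, n = 6). As given above, Esr2 reads are counted in a 3′ window that Syne2 shares. DRaqL-SC3-seq gave 8.19 ± 0.73 against 6.49 ± 0.83, and the formalin set -0.01. Amhr2 and Wt1 were past 2-fold lower in secondary to antral oocytes in all 4 methods, by -1.60 to -2.16 and -1.68 to -2.66 on the log2 scale. Foxl2 and Wnt4 were lower in 3. The granulosa marker sum had medians in secondary to antral and primary oocytes of 462 and 437 RPM in DRaqL-SC3-seq, 474 and 515 in SMART-Seq v4, 604 and 398 in DRaqL-SMART-Seq v4 and 761 and 996 in the formalin set. The part of granulosa RNA in these stage differences was not tested.

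Other genes of the same pathways were taken as lists. Between DRaqL-SC3-seq granulosa cells and oocytes, 44.6% of all genes were past 2-fold lower and 3.21% higher in granulosa cells, so that a share of lower genes near 44.6% is the background of the counts below. Of 12 genes that the factors are known to drive, 7 were past 2-fold higher and 0 lower in DRaqL-SC3-seq granulosa cells than in oocytes, with a list median of 1.35 against -0.67 over all genes, and by method 5 to 8 were higher. Inha, which encodes the inhibin alpha chain, was 12.12 ± 0.80 against 6.69 ± 2.04, Fshr, the FSH receptor, 7.52 ± 2.51 against 2.50 ± 1.36, Fst, the activin-binding follistatin, 6.96 ± 2.43 against 0.92 ± 1.32, and Hsd17b1, which makes estradiol from estrone, 6.71 ± 2.12 against 1.47 ± 1.37. Most of the 12 genes, these 4 among them, are also on the granulosa marker list. The count is therefore no evidence on the factors apart from those markers. By position in the pools 0 of the 5 genes tested were called.

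Of 12 genes of AMH and BMP signal transduction, 2 were higher and 4 lower past 2-fold in DRaqL-SC3-seq granulosa cells (list median -0.17 against -0.67 over all genes). Bmpr1b, a type I receptor, was 9.0 ± 1.98 against 7.77 ± 0.71 and the target Id3 6.18 ± 3.57 against 4.56 ± 2.03, whereas the receptor Bmpr1a (3.26 ± 2.97 against 5.25 ± 1.02) and the shared mediator Smad4 (6.15 ± 3.11 against 7.45 ± 0.64) were lower. In LCM-seq, where Amh and Amhr2 were lower in non-neighboring cells, 6 of these 12 were past 2-fold lower and 0 higher, against 13% and 4.77% of all genes. Oocyte markers were over the limit in 7 of 17 neighboring and 0 of 20 non-neighboring cells there, and their part in the list was not tested. In DRaqL-SC3-seq 2 were higher and 0 lower by position, against 7.54% and 2.84% of all genes, and 0 of 9 tested were called in the pools. SMART-Seq v4 had 4 higher and 0 lower (12.1% and 6.9% of all genes), and DRaqL-SMART-Seq v4 4 and 4 (11% and 6.67%). DRaqL-Smart-seq2 had 1 and 4 (5.37% and 8.84%), and the formalin set 0 and 3 (8.66% and 14.8%). In the same mouse, captured cells had 0 and 4 (6.71% and 4.64%) and dissociated cells 4 and 0 (33.2% and 3.39%). Of 12 genes of WNT4, RSPO1 and beta-catenin signaling, 0 were higher and 6 lower in DRaqL-SC3-seq granulosa cells, a share of lower genes near that of all genes (list median -0.95 against -0.67). Among the 6 were Ctnnb1, beta-catenin itself (5.63 ± 3.19 against 7.29 ± 0.75), Lrp6, a WNT co-receptor (3.82 ± 2.79 against 5.31 ± 1.00), and Znrf3, which removes WNT receptors (2.94 ± 2.79 against 4.26 ± 1.13), while the nuclear mediator Tcf7l2 was 3.21 ± 2.67 against 3.14 ± 1.59. In the pools 0 of 5 tested were called.

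Of 13 partners of the factors, 3 were higher and 5 lower past 2-fold in DRaqL-SC3-seq granulosa cells than in oocytes, against 3.21% and 44.6% of all genes. Foxo1 was 9.55 ± 1.51 against 8.38 ± 1.25, the GATA cofactor Zfpm2 5.94 ± 2.93 against 3.49 ± 1.92 and the Polycomb gene Cbx2 3.53 ± 3.29 against 6.88 ± 1.91. In the pools 0 of 9 were called. Of 8 genes of the testis-type supporting cell, 1 was higher and 4 lower, a share of lower genes near the same 44.6%, with Dhh at 2.76 ± 3.28 against 1.19 ± 1.20, Aard at 3.36 ± 2.88 against 3.74 ± 1.96, Cldn11 at 0.72 ± 1.75 against 0.93 ± 1.15 and Dmrt1 at 0.48 ± 0.91 against 2.45 ± 1.28. In the pools 0 of 2 were called.

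The genes most like 3 of the members were ranked by Pearson's r of group means over the 26 groups of single granulosa cells and oocytes, among 10923 genes, as a description over groups that share tables, chemistry and depth. For Foxl2 they were Cpe (r = 0.87), Rpl23 (0.86) and Ptma (0.86), for Amh Lrch2 (0.94), Gpihbp1 (0.90) and Notch2 (0.88), and for Wnt4 Isyna1 (0.86), Zyx (0.77) and Rpl12 (0.75).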

How the data were processed

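RNA sequencing of 562 of the 577 samples with gene counts in 8 tables was used. The authors deposited read counts per gene. Per the study's methods, reads were trimmed with fastp 0.20.0 and cutadapt 1.16, aligned with HISAT2 2.1.0 to GRCm38, and counted with HTSeq 0.10.0 within 10 kb of annotated 3′ ends, so that extended 3′ windows can hold reads of neighboring genes. Libraries with Y-shaped adapters were counted over exons with featureCounts 2.0.1. The counting strand is not given in the sources used here.

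Counts were scaled to RPM, the reads per 1000000, over 22060 protein-coding genes and given as log2 (RPM+1). Single cells were described by group means, SDs and exact intervals (Poisson for sums, Clopper-Pearson for shares), and shares also after thinning to 100000 reads. Pools and bulk samples were tested with edgeR 4.0.16 (quasi-likelihood, TMM factors, low counts filtered, Benjamini-Hochberg adjustment), and with DESeq2 1.42.0 as an alternative, in R 4.3.3. The edgeR test of position in the pools was checked on simulated data. The members and lists were chosen with earlier results of these data known. The text names all members and, of each other list, the genes called in the pools or otherwise the 4 highest in DRaqL-SC3-seq granulosa cells, and for Foxl2, Amh and Wnt4 the 3 genes most alike. Alternatives covered the pseudocount, thinning, spike-in scaling, library pools or ranges of cell numbers, cells with oocyte RNA, normalization, filters, the replicate block and single libraries left out. Genomic position and sequence of Gata6, and the values of 1 gene that this rule names, are not reported here.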

Additional observations from a re-analysis of the deposited data

Results flagged for a closer look

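Of 89 groups of 4 to 10 samples tested member by member, 13 held a sample far from the others by Dixon's gap, where chance flags about 1 in 20. In the pools and bulk samples these were 1 neighboring pool without Foxl2 reads (log2 (RPM+1) of 0, next 5.25), 1 neighboring pool with Gata4 at 0.50 (next 6.31), 1 bulk sample with Gata4 at 0.50 (next 5.61), 1 non-neighboring pool with Gata6 at 7.74 (next 5.06) and 1 non-neighboring pool with Esr2 at 6.82 (next 8.41).

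The other 8 were single oocytes. With DRaqL-SMART-Seq v4, 1 primary oocyte had Foxl2 at 0 (next 3.58), 1 had Amh at 1.34 while the others were at 0, 1 secondary to antral oocyte had Gata6 at 0 (next 1.55) and 1 had Wnt4 at 3.41 (next 1.19). In the formalin set, secondary to antral oocytes included 1 with Gata6 at 0 (next 3.38), 1 with Esr2 at 2.65 (next 6.49) and 1 with Wnt4 at 7.96 (next 2.61). With SMART-Seq v4, 1 primary oocyte had Wt1 at 1.76 (next 5.57).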

How the results depend on the processing

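Of 1788 differences of members between groups of single cells recomputed under alternatives, 25 that were past 2-fold reversed and 26 moved by more than the spread. The other 1737 were counted as the same. They include differences under 2-fold that changed sign, for example Nr5a1 by position in the formalin set (0.32, and -0.28 when thinned). Per spike-in read, the members past 2-fold higher in granulosa cells than in oocytes went from 20 to 0 of 30. Most of these called differences, but not all, reversed, and those that reversed are given here. In SMART-Seq v4 they became -2.66 (Foxl2), -2.09 (Nr5a2), -2.33 (Gata4), -1.75 (Wt1), -3.14 (Esr2), -2.71 (Amhr2) and -1.43 (Wnt4). In DRaqL-SMART-Seq v4 they became -0.46 (Foxl2), -0.45 (Nr5a2), -0.51 (Gata4), -1.50 (Wt1) and -2.25 (Esr2), and in the formalin set -0.47 (Nr5a2), -1.58 (Gata4), -0.25 (Esr2), -1.47 (Amh) and -1.30 (Amhr2). By position, 28 of 80 past 2-fold became 12 with a pseudocount of 10 RPM and 17 with the ratio of mean RPM. Wnt4 in SMART-Seq v4 became -0.36 without cells holding oocyte RNA, and Amh in the formalin set 0.73 as a ratio of mean RPM. In dissociated cells Foxl2 became -0.30 within library pools, Gata6 -1.46 as a ratio of means and -1.51 within library pools, and Amhr2 -0.27 as a ratio, -0.31 when thinned and -2.23 within library pools. For formalin against alcohol, 2 members past 2-fold became 1 with a pseudocount of 10 RPM and 4 when thinned. The causes were not tested, beyond the scaling itself for the spike-in values.

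In the pools, the share of tested genes called by edgeR was 0.453% and became 1.20% with DESeq2, 0.294% without a filter on low counts and 0.0309% with the replicate block. Same-numbered pools correlated at 0.00593 to 0.188, over 0.1 for 2 of 7 numbers, and 3 of 7 correlated best with their own number, so the pools share only a number. Leaving out a pool, or both pools of a number, gave 0.0296% (without neighboring pool 5) to 0.567% (without neighboring pool 1), and the share fell by over 1.5 times without neighboring pool 4, 5 or 6 or non-neighboring pool 1, 3, 4, 5 or 7. In bulk against pools, 0.101% became 0.755% with DESeq2, 0.260% with library totals, 0.705% with upper-quartile factors and 2.31% without a filter. Leaving out a bulk sample gave 0% (without 3, 5, 6 or 8) to 0.469% (without 4). Of 338 values of members in these settings, 0 passed an adjusted p of 0.05. Depth limits the dissociated cells most, and 0 of 14 oocytes with Amh or Wnt4 reads allows a share of up to 21.4%.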

Other observations

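The 16 serially sectioned oocyte libraries, which entered no comparison, had Esr2 at 7.51 to 9.13 (median 8.43), Nr5a2 at 3.89 to 6.67 (median 5.94) and Gata4 at 3.66 to 5.88 (median 4.82), each in 16 of 16. Foxl2 was read in 13 of 16, at most at 4.16, and Amh in 4 of 16. The 3 DRaqL-SC3-seq granulosa cells set apart by the study had Nr5a2 at 8.70, 9.02 and 8.87 and Esr2 at 8.60, 9.57 and 6.58.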
